A study of Homo sapiens with 9 samples.

Results

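The transcripts described here come from the human mitochondrial genome, a small circular DNA held in many copies inside the mitochondria. They were chosen by name: all 37 genes of the count table whose symbol begins MT-, out of 62700 genes in all. The 37 comprise 13 protein-coding genes, 2 ribosomal RNAs (rRNAs) and 22 transfer RNAs (tRNAs). RNA came from 293T cells, a human embryonic kidney line, reverse transfected with Fugene 6 (300000 cells per condition) and harvested about 48 h later. The 3 groups received an empty vector, a vector coding for HA-CIC::DUX4, or a vector coding for HA-CIC(ex20)::NUTM1(ex6), called CIC::DUX4 and CIC::NUTM1 from here on. CIC is a DNA-binding repressor that is fused to DUX4 or NUTM1 in some sarcomas. Each group had 3 libraries. The labels give a day of its own to each replicate transfection, so the spread between libraries includes the day of transfection. Expression from a transfected plasmid is transient and need not reach every cell, and both fusions were studied in this single line. The libraries were made from RNA enriched for poly(A) tails. CIC, DUX4 and NUTM1 transcripts are not analysed here, and no check of which plasmid a culture received was made.

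Mitochondrial DNA is transcribed by its own polymerase, POLRMT with TFAM and TFB2M, into long transcripts of each strand. The tRNAs lie between most of the other genes, and their excision by RNase P and ELAC2 releases the mRNAs and rRNAs. The 13 proteins are core subunits of respiratory complexes I, III, IV and V, and each complex is completed by subunits coded in the nucleus. Most mitochondrial mRNAs carry a short poly(A) tail, added by MTPAP and kept by the LRPPRC and SLIRP proteins, whereas mature tRNAs carry none and MT-ND6 is known as the mRNA that lacks one.

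The genes are packed so tightly that several mRNAs end inside a stop codon, which the poly(A) tail then completes. In the GENCODE 29 transcripts (GRCh38), 6 of the 13 coding genes ended in an incomplete stop codon, 5 after a single base and 1 after a pair of bases, and 7 ended in a complete one. The last 24 bases of 4 genes that the results turn on are printed 5′ to 3′ with the stop codon or its first bases in capitals, because the tail bears on what poly(A) enrichment can capture.
MT-ND2 (chrM:5488-5511, + strand): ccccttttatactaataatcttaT
MT-CYB (chrM:15864-15887, + strand): aaaacaaaatactcaaatgggccT
MT-CO2 (chrM:8246-8269, + strand): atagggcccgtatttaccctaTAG
MT-ND6 (chrM:14149-14172, − strand): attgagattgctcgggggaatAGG
MT-ND2 and MT-CYB stop after the T of a stop codon, and MT-CO2 and MT-ND6 have a complete one.

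In 2 places a pair of coding genes shares bases and is made as 1 mRNA, so that a read in the shared stretch cannot be given to a single gene. These junctions are printed, with the shared bases in capitals, because they can bear on the counts of MT-ATP8 and MT-ND4L. How far they did was not tested.
MT-ATP8 and MT-ATP6 (chrM:8507-8592, + strand): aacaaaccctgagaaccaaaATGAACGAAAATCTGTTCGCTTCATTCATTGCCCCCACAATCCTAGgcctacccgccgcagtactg
MT-ND4L and MT-ND4 (chrM:10740-10786, + strand): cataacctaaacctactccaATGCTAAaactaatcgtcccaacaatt
The first pair shares 46 bases of the 207 of MT-ATP8, and the second shares 7 bases of the 297 of MT-ND4L. MT-ATP6 and MT-CO3 also share 1 base in the annotation, and that junction is not printed.

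Depth was 16970771 to 33655445 counts per library. The 293T markers NEFM, NEFL, LHX1, PAX2 and EYA1 were all detected in each library. NEFM, a neurofilament subunit, was at 566 ± 86.9 CPM (counts as a rate of library depth, with depths scaled by TMM, the trimmed mean of M-values) with empty vector, 360 ± 16.1 with CIC::DUX4 and 347 ± 53.8 with CIC::NUTM1 (SD, n = 3). NEFM and NEFL were called lower with both fusions, whereas EYA1 was called higher with both, from 5.68 CPM to 18.7 and 13.2, and LHX1 higher with CIC::NUTM1, from 14.0 to 18.6. Of 6 markers of blood, liver and fibroblast cells, HBB was at 0 in all 9 libraries and the 6 summed to 0 to 0.263, 0.813 to 4.42 and 1.40 to 3.06 CPM, respectively. Among them PTPRC was called higher with both fusions, from 0.0195 CPM with empty vector to 0.411 and 0.907, and DCN with CIC::NUTM1, from 0.0390 to 0.750. The part of other cell types in the results below was not tested.

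Mitochondrial transcripts took a larger share of the counts in every CIC::DUX4 library than in any empty vector library. The 37 genes held 1.72%, 1.32% and 1.20% of counts with empty vector, 1.91%, 2.14% and 1.89% with CIC::DUX4, and 1.77%, 1.91% and 1.30% with CIC::NUTM1. The means were 1.41% ± 0.276, 1.98% ± 0.139 and 1.66% ± 0.322 (SD, n = 3 each). The CIC::DUX4 share was 1.40 times the empty vector share, with no overlap (exact permutation test, two-sided p = 0.1, the smallest that 3 against 3 libraries can give). The CIC::NUTM1 share was 1.18 times that of empty vector with overlapping libraries (exact permutation p = 0.3), and it overlapped that of CIC::DUX4 as well (exact permutation p = 0.3). A share is relative to the other counts of its library and does not measure RNA per cell. More mitochondrial RNA per cell, less other RNA per cell and a different mix of cells cannot be told apart in these bulk samples. Empty vector replicate 1 and CIC::NUTM1 replicate 3 stood apart from the other libraries of their groups, the first high and the second low.

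**Figure D1:**
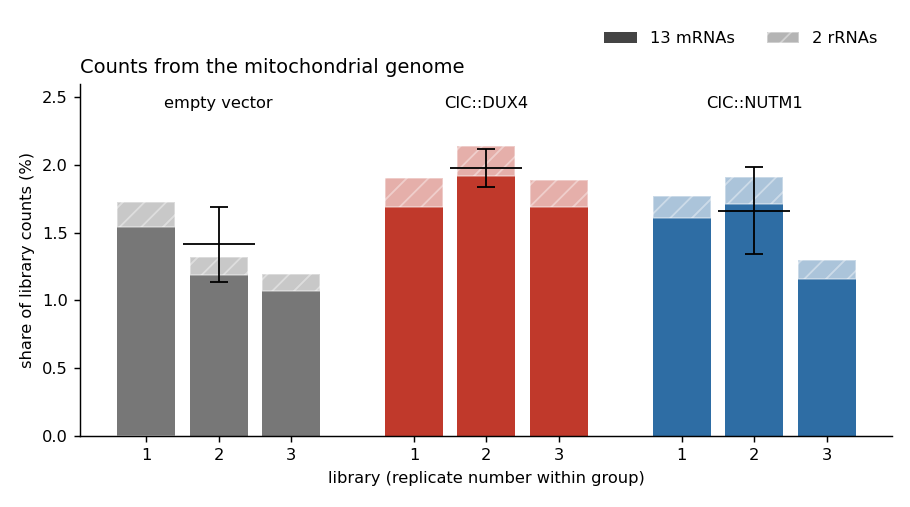
Share of library counts (%) from the mitochondrial genome in each of the 9 libraries, as bars split into the 13 mRNAs (solid) and the 2 rRNAs (hatched), with black lines for the group mean and SD (n = 3). The CIC::DUX4 libraries sit between 1.89% and 2.14%, above all 3 empty vector libraries, and the CIC::NUTM1 libraries span 1.30% to 1.91%.

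The mRNAs made up 89.4% of the 3362102 mitochondrial reads of all libraries, the rRNAs 10.5% and the tRNAs 0.0365%. The 13 mRNAs had a mean share of 1.27% ± 0.247 with empty vector, 1.77% ± 0.133 with CIC::DUX4 and 1.49% ± 0.294 with CIC::NUTM1 (SD, n = 3). The rRNAs held 0.147% ± 0.0290, 0.213% ± 0.0111 and 0.171% ± 0.0305 of counts in the same order. In both classes the CIC::DUX4 libraries lay above the empty vector libraries (exact permutation p = 0.1 for each) and the CIC::NUTM1 libraries overlapped both other groups.

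In the test across all genes, 19 of the 37 genes passed the abundance filter: the 13 mRNAs, both rRNAs and 4 tRNAs. With CIC::DUX4, 2 of the 19 were called higher than with empty vector at an adjusted p under 0.05, MT-ND2 and MT-RNR1, and none was called lower (0 at an unadjusted p under 0.05, and 0 by DESeq2). Over all 17576 genes tested, 6.96% were called higher and 1.27% lower (8.24% in either direction) in that comparison. All 13 mRNAs had a positive fitted change, with a median log2 fold change of 0.48 against -0.0015 over all genes tested. Libraries did not overlap, with CIC::DUX4 on top, for 9 of the 13 mRNAs and 12 of the 19 genes, against 14.7% of all genes tested. The members are processed from shared transcripts and were read in the same libraries, so these counts are not independent.

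With CIC::NUTM1, MT-ND2 was the 1 mitochondrial gene called higher than with empty vector and none was called lower (0 at an unadjusted p under 0.05, and 0 by DESeq2), beside 11.5% and 3.83% of all genes tested (15.3% in either direction). The median log2 fold change of the mRNAs was 0.23 against -0.00086 over all genes, 12 of 13 were positive, and MT-ND2 was the 1 gene of 19 whose libraries did not overlap, with 18.1% of all genes tested lying wholly above. Set against CIC::DUX4, CIC::NUTM1 had 1 mitochondrial gene called lower, MT-RNR1, and none called higher (0 at an unadjusted p under 0.05, and 0 by DESeq2), beside 1.64% and 4.97% of all genes (6.61% in either direction). All 13 mRNAs had a negative fitted change between the fusions, with a median of -0.22 (all genes -0.0053). In 4 of the 19 (MT-RNR1, MT-ND2, MT-ATP6 and MT-CYB) every CIC::NUTM1 library lay below every CIC::DUX4 library, against 9.35% of all genes. Both comparisons with empty vector use the same 3 control libraries.

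**Figure D2:**
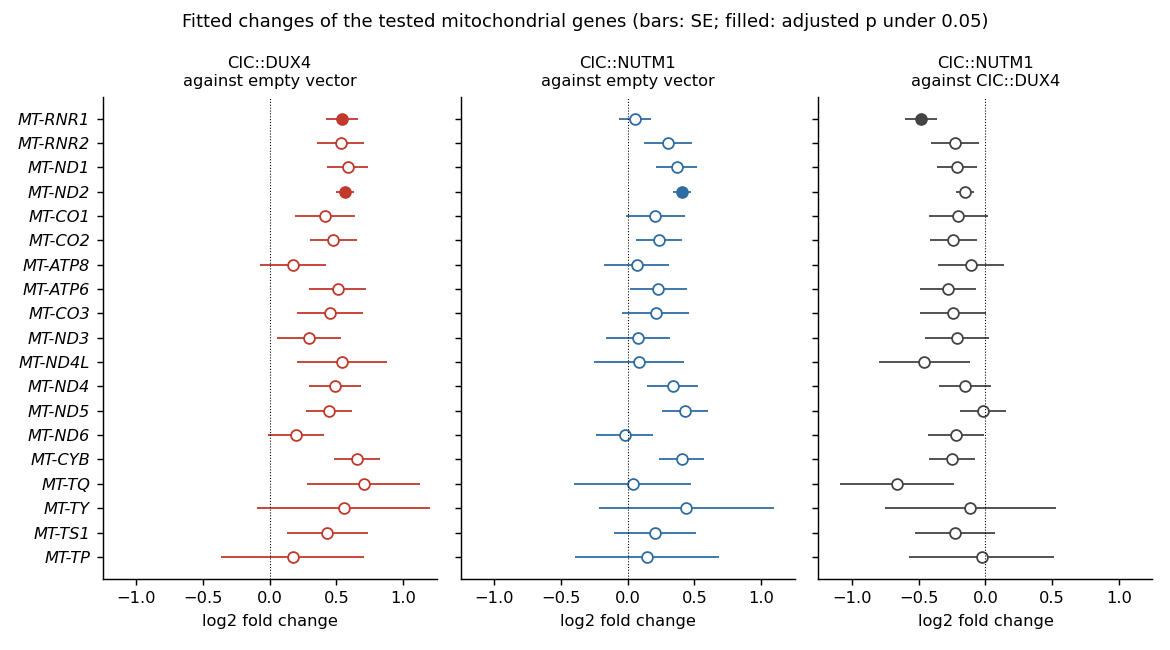
Fitted log2 fold changes (horizontal axis) of the 19 tested mitochondrial genes, rRNAs and mRNAs in genome order and then tRNAs, in the 3 comparisons, with bars for the SE and filled points for adjusted p under 0.05. All 19 points lie right of 0 for CIC::DUX4 against empty vector, where MT-ND2 and MT-RNR1 are filled, and all lie left of 0 for CIC::NUTM1 against CIC::DUX4, where MT-RNR1 is filled.

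Complex I, the NADH dehydrogenase that takes electrons from NADH and pumps protons, has 7 mitochondrially coded subunits, all in its membrane arm. MT-ND2 (ENSG00000198763, chrM:4470-5511) was at 955, 874 and 762 CPM with empty vector, 1295, 1311 and 1216 CPM with CIC::DUX4, and 1191, 1197 and 1048 CPM with CIC::NUTM1. Both fusion groups lay wholly above the empty vector libraries, and the CIC::DUX4 libraries lay above the CIC::NUTM1 libraries. The log2 fold change of MT-ND2 was 0.56 ± 0.07 (adjusted p = 7.85e-06) with CIC::DUX4 and 0.41 ± 0.07 (adjusted p = 0.000205) with CIC::NUTM1, and the difference between the fusions was -0.15 ± 0.07 (adjusted p = 0.231). MT-ND2 passed the threshold against empty vector in both comparisons under each of 10 other settings and with each of the 6 libraries of the comparison left out in turn.

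The other long complex I mRNAs had changes of like size with a wider spread. MT-ND1 (ENSG00000198888, chrM:3307-4262), next to the quinone site of the enzyme, was at 737, 599 and 544 CPM with empty vector, 848, 983 and 984 CPM with CIC::DUX4, and 892, 867 and 664 CPM with CIC::NUTM1. Every CIC::DUX4 library was above every empty vector library, while CIC::NUTM1 replicate 3 fell within the empty vector range. The fitted changes of MT-ND1 were 0.58 ± 0.15 (adjusted p = 0.0651) with CIC::DUX4 and 0.37 ± 0.15 (adjusted p = 0.17) with CIC::NUTM1, neither called. MT-ND4 (ENSG00000198886, chrM:10760-12137), a proton-pumping subunit, was at 1917, 1479 and 1382 CPM with empty vector, 2113, 2473 and 2122 CPM with CIC::DUX4, and 2149.8, 2341 and 1542 CPM with CIC::NUTM1. Its CIC::DUX4 libraries lay above the empty vector libraries, and CIC::NUTM1 replicate 3 again lay within them. The changes of MT-ND4 were 0.49 ± 0.19 (adjusted p = 0.236) and 0.34 ± 0.19 (adjusted p = 0.334), respectively. MT-ND5 (ENSG00000198786, chrM:12337-14148), the pump at the far end of the membrane arm, was at 1097, 878 and 833 CPM with empty vector, 1221, 1413 and 1188 CPM with CIC::DUX4, and 1341, 1441 and 989.7 CPM with CIC::NUTM1. It showed the same order, with CIC::NUTM1 replicate 3 below empty vector replicate 1. Its changes were 0.45 ± 0.17 (adjusted p = 0.222) and 0.43 ± 0.17 (adjusted p = 0.17), and between the fusions it was -0.02 (adjusted p = 0.973).

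The 3 remaining complex I mRNAs, which are short or lack a tail, overlapped between all groups. MT-ND3 (ENSG00000198840, chrM:10059-10404), a small subunit beside the quinone channel, was at 253, 158 and 149.7 CPM with empty vector, 182, 238 and 267 CPM with CIC::DUX4, and 203, 179.6 and 209 CPM with CIC::NUTM1. Empty vector replicate 1 was above 2 CIC::DUX4 libraries and all CIC::NUTM1 libraries for this gene. MT-ND4L (ENSG00000212907, chrM:10470-10766), which shares its mRNA with MT-ND4, was at 179, 90.2 and 92.1 CPM with empty vector, 125, 196 and 203 CPM with CIC::DUX4, and 122, 152 and 107 CPM with CIC::NUTM1. Within the empty vector group, replicate 1 was far above the 2 others. MT-ND6 (ENSG00000198695, chrM:14149-14673), the only mRNA read from the opposite strand, was at 58.0, 64.3 and 39.6 CPM with empty vector, 59.9, 70.9 and 54.7 CPM with CIC::DUX4, and 42.0, 53.2 and 64.1 CPM with CIC::NUTM1. No group stood apart for MT-ND6, and CIC::NUTM1 replicate 3 was the highest of its group there. Fitted changes with CIC::DUX4 were 0.30, 0.54 and 0.20 for MT-ND3, MT-ND4L and MT-ND6 (adjusted p = 0.595, 0.474 and 0.696). With CIC::NUTM1 they were 0.08, 0.09 and -0.02 (adjusted p = 0.884, 0.914 and 0.966).

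Complex III, which passes electrons from ubiquinol to cytochrome c, has 1 mitochondrially coded subunit, cytochrome b. Its gene MT-CYB (ENSG00000198727, chrM:14747-15887) was at 972, 778 and 679.7 CPM with empty vector, 1211, 1400.2 and 1207 CPM with CIC::DUX4, and 1175, 1168 and 871 CPM with CIC::NUTM1. The CIC::DUX4 libraries lay above both other groups, and CIC::NUTM1 replicate 3 lay between empty vector replicates 1 and 2. MT-CYB had the highest fitted change of the 13 mRNAs with CIC::DUX4, 0.65 ± 0.17 (adjusted p = 0.0765), which was not called. Its change was 0.40 ± 0.17 (adjusted p = 0.189) with CIC::NUTM1 and -0.25 ± 0.17 (adjusted p = 0.531) between the fusions.

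Complex IV, the cytochrome c oxidase that reduces oxygen to water, has its 3 catalytic core subunits coded here, and their mRNAs had the 3 highest mean levels per kilobase of the 13 mRNAs in each group. MT-CO1 (ENSG00000198804, chrM:5904-7445), the subunit that holds the oxygen-binding centre, was at 4089.6, 3152 and 2837 CPM with empty vector, 4295, 4952 and 4160.0 CPM with CIC::DUX4, and 4123, 4705 and 2815 CPM with CIC::NUTM1. Every CIC::DUX4 library was above every empty vector library, and the CIC::NUTM1 libraries ran from below the lowest empty vector library to above the highest. MT-CO2 (ENSG00000198712, chrM:7586-8269), which receives electrons from cytochrome c, was at 2147, 1628 and 1520.1 CPM with empty vector, 2289.7, 2624 and 2445 CPM with CIC::DUX4, and 2241, 2324 and 1667 CPM with CIC::NUTM1. The CIC::DUX4 libraries were above the empty vector libraries by a margin smaller than the empty vector range. MT-CO3 (ENSG00000198938, chrM:9207-9990), the third core subunit, was at 1641, 1108 and 1042 CPM with empty vector, 1754, 1767 and 1659.5 CPM with CIC::DUX4, and 1742, 1612 and 1025 CPM with CIC::NUTM1. For MT-CO3 the lowest CIC::DUX4 library exceeded empty vector replicate 1 only narrowly, and CIC::NUTM1 replicate 3 was the lowest of all 9. Fitted changes with CIC::DUX4 were 0.41 ± 0.22 (adjusted p = 0.4) for MT-CO1, 0.48 ± 0.18 (adjusted p = 0.204) for MT-CO2 and 0.45 ± 0.25 (adjusted p = 0.412) for MT-CO3. With CIC::NUTM1 they were 0.21, 0.24 and 0.21 (adjusted p = 0.631, 0.466 and 0.673), so no complex IV mRNA was called in either comparison.

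Complex V, the ATP synthase, has 2 mitochondrially coded membrane subunits, which are translated from 1 shared mRNA. MT-ATP6 (ENSG00000198899, chrM:8527-9207), which forms the proton channel with the rotor ring, was at 1192, 855 and 779 CPM with empty vector, 1244, 1440.2 and 1336 CPM with CIC::DUX4, and 1234, 1233 and 844 CPM with CIC::NUTM1. The CIC::DUX4 libraries lay above all libraries of both other groups. MT-ATP8 (ENSG00000228253, chrM:8366-8572), a small subunit of the stalk, was at 10.2, 5.62 and 5.52 CPM with empty vector, 6.28, 8.99 and 8.57 CPM with CIC::DUX4, and 6.89, 9.59 and 5.38 CPM with CIC::NUTM1. Empty vector replicate 1 was the highest of all 9 libraries for MT-ATP8, and the groups overlapped. The change with CIC::DUX4 was 0.51 ± 0.21 (adjusted p = 0.262) for MT-ATP6 and 0.18 ± 0.24 (adjusted p = 0.772) for MT-ATP8, and with CIC::NUTM1 it was 0.23 and 0.07 (adjusted p = 0.57 and 0.902). Per kilobase, MT-ATP6 had 35.4 to 60.2 times the level of MT-ATP8 over the 9 libraries, although both lie on the same mRNA. MT-ND4 stood at 2.25 to 3.81 times MT-ND4L per kilobase, the other pair on a shared mRNA. How the authors' counting treated reads over shared or adjoining genes is not given in the sources used here, and its part in these ratios was not tested.

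The rRNAs form the cores of the mitochondrial ribosome, the small-subunit rRNA coded by MT-RNR1 and the large-subunit rRNA by MT-RNR2. MT-RNR1 (ENSG00000211459, chrM:648-1601) was at 320.1, 258 and 238 CPM with empty vector, 407, 396 and 382 CPM with CIC::DUX4, and 265, 331 and 249 CPM with CIC::NUTM1. The 3 CIC::DUX4 libraries lay above all 6 others, and the CIC::NUTM1 libraries lay within or just above the empty vector range. Its log2 fold change was 0.54 ± 0.12 (adjusted p = 0.0177) with CIC::DUX4 and 0.06 ± 0.12 (adjusted p = 0.831) with CIC::NUTM1, and the difference between the fusions was called, -0.49 ± 0.12 (adjusted p = 0.0377). The call against empty vector held under the 10 other settings. It did not pass the threshold without CIC::DUX4 replicate 1, 2 or 3 (adjusted p = 0.0719, 0.0568 and 0.0683) or without empty vector replicate 2 (0.0856). In the comparison of the fusions it held under the 10 settings, and of the 6 libraries left out in turn it passed only without CIC::NUTM1 replicate 2 (highest adjusted p = 0.196, without CIC::NUTM1 replicate 1).

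MT-RNR2 (ENSG00000210082, chrM:1671-3229) was at 1462, 1053 and 1033 CPM with empty vector, 1742, 1772 and 1612 CPM with CIC::DUX4, and 1448, 1719 and 1207 CPM with CIC::NUTM1. The CIC::DUX4 libraries exceeded the empty vector libraries, and CIC::NUTM1 spanned from inside the empty vector range into the CIC::DUX4 range. Its changes were 0.53 ± 0.18 (adjusted p = 0.161) and 0.30 ± 0.18 (adjusted p = 0.344), neither called. The log2 ratio of MT-RNR1 to MT-RNR2 counts, a measure added after the levels had been seen, was -2.19, -2.03 and -2.12 with empty vector, -2.10, -2.16 and -2.08 with CIC::DUX4, and -2.45, -2.37 and -2.27 with CIC::NUTM1. All CIC::NUTM1 libraries were below all 6 others, by -0.25 against each group mean (exact permutation p = 0.1 for each), and the means of the other groups differed by 0.00044 (exact permutation p = 1). The ratio does not depend on how libraries were scaled, but what poly(A) enrichment did to either rRNA was not tested.

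The tRNAs gave few reads, 1228 in all libraries together. Of the 22, 13 had no count in any library, 18 were too low to be tested, and no untested tRNA exceeded 9 counts in a library. For scale, 3 counts stood for 0.0891 to 0.177 CPM. A count of 0 therefore leaves levels up to that limit undetected, which covers counting error only, since the reads carry no molecular identifiers. Reads were strongly uneven by strand: 1201 (97.8%) fell on the 8 tRNAs that share their strand with MT-ND6, and 27 on the 14 that share it with the 12 other mRNAs. The use of strand in counting is not given in the sources used here, and without it reads of a tRNA and of RNA from the opposite strand cannot be told apart. The 3 tRNAs with the highest mean levels were MT-TS1, MT-TQ and MT-TP, coding the tRNAs for serine, glutamine and proline. The gene sequences of the leading pair are printed 5′ to 3′, with the bases of MT-TQ that face MT-TI on the other strand in capitals.
MT-TS1 (chrM:7446-7514, − strand): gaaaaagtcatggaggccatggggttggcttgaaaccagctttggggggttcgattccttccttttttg
MT-TQ (chrM:4329-4400, − strand): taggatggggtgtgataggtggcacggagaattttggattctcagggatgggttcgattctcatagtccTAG
MT-TS1 takes up the bases that follow MT-CO1 directly, on the opposite strand.

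MT-TS1 was at 3.83, 2.84 and 1.60 CPM with empty vector, 4.07, 3.4 and 3.52 CPM with CIC::DUX4, and 4.37, 2.41 and 2.74 CPM with CIC::NUTM1. MT-TQ was at 0.800, 1.43 and 1.24 CPM with empty vector, 2.25, 2.01 and 1.47 CPM with CIC::DUX4, and 1.20, 0.535 and 1.97 CPM with CIC::NUTM1. MT-TP was at 0.572, 0.702 and 0.440 CPM with empty vector, 0.761, 0.478 and 0.705 CPM with CIC::DUX4, and 0.659, 0.726 and 0.517 CPM with CIC::NUTM1. The groups overlapped for MT-TS1 and MT-TP, and for MT-TQ the CIC::DUX4 libraries lay just above the empty vector libraries. None of the 4 tested tRNAs was called in any comparison by edgeR, and none had an unadjusted p under 0.05. With CIC::DUX4 their adjusted p ran from 0.396 to 0.912, with log2 fold changes of 0.17 to 0.70, and the SE of MT-TY, the fourth, was 0.65 at a mean of 0.356 CPM with empty vector. The summed tRNA share of counts was 0.000522% ± 0.00011 with empty vector, 0.000744% ± 9.79e-05 with CIC::DUX4 and 0.000577% ± 0.000133 with CIC::NUTM1 (SD, n = 3). In this share too every CIC::DUX4 library lay above every empty vector library, with a ratio of 1.42 (exact permutation p = 0.1). The CIC::NUTM1 libraries overlapped both other groups.

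The proportions between classes of mitochondrial RNA overlapped between all groups. The log2 ratio of rRNA to mRNA counts was -3.11 ± 0.04, -3.05 ± 0.09 and -3.12 ± 0.13 (SD, n = 3) with empty vector, CIC::DUX4 and CIC::NUTM1. The log2 ratio of MT-ND6 to the 12 mRNAs of the other strand was -7.87 ± 0.32, -8.14 ± 0.11 and -8.16 ± 0.57, and that of tRNA to mRNA counts was -11.25 ± 0.19, -11.22 ± 0.25 and -11.34 ± 0.47. Libraries overlapped in all 9 of these comparisons, with exact permutation p from 0.2 to 1.

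Within the mRNA counts the shares of single genes differed by small amounts between groups. MT-CO1 was the largest part in every library, 26.8% ± 0.206 with empty vector, 25.6% ± 0.798 with CIC::DUX4 and 25.3% ± 1.75 with CIC::NUTM1 (SD, n = 3). MT-CYB took 6.47% ± 0.168, 7.29% ± 0.127 and 7.08% ± 0.298 in the same order, higher in every library of both fusions than in any empty vector library. MT-ND5 took 7.51% ± 0.308, 7.29% ± 0.223 and 8.28% ± 0.117, and its CIC::NUTM1 libraries were above both other groups. The remaining gaps without overlap were a lower MT-CO1 share with CIC::DUX4 and a higher MT-ND4 share with CIC::NUTM1 (13.2% ± 0.295), each against empty vector (MT-ND4 12.7% ± 0.202). Each of these 6 gaps had an exact permutation p of 0.1, and after adjustment over the 39 comparisons of 13 genes none passed (adjusted p = 0.65). MT-ND2, the gene called in both comparisons with empty vector, overlapped in its share of the mRNA counts, at 6.96% ± 0.631, 7.31% ± 0.428 and 7.67% ± 1.03.

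**Figure D3:**
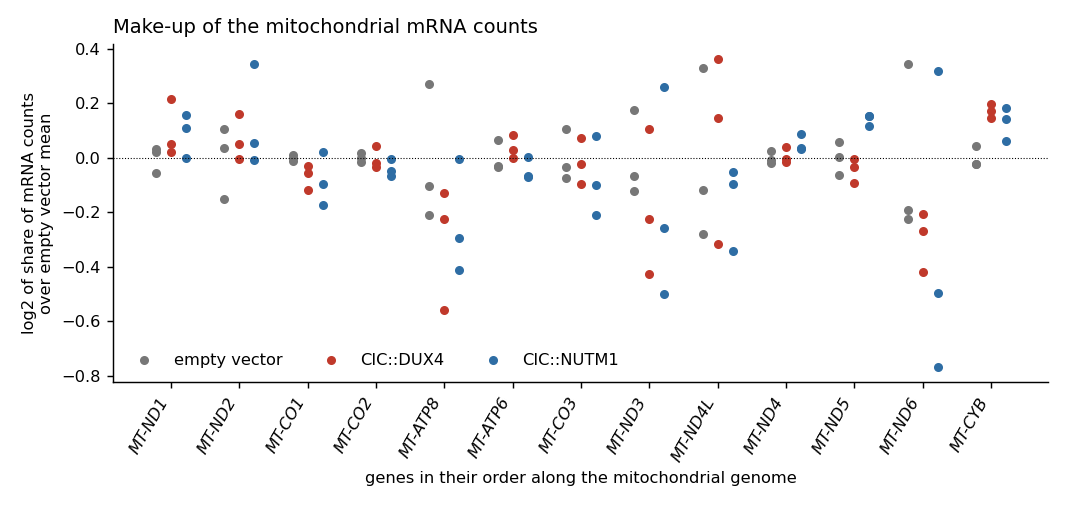
Share of each gene in the summed counts of the 13 mitochondrial mRNAs, as the log2 ratio to the empty vector mean (vertical axis), with 1 point per library and the genes in genome order. MT-CYB is above the empty vector points in all 6 fusion libraries and MT-ND5 in all 3 CIC::NUTM1 libraries, while the points of MT-ATP8, MT-ND3, MT-ND4L and MT-ND6, the rarest mRNAs, scatter most.

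Levels per length, in CPM per kilobase of the annotated gene, differed widely between genes. With empty vector the order from the top was MT-CO2 (2581 ± 490), MT-CO1 (2179 ± 423), MT-CO3 (1612 ± 419), MT-ATP6 (1383 ± 323), MT-ND4 (1156 ± 207) and MT-ND2 (829 ± 92.9). Below them came MT-RNR2 (759 ± 155), MT-CYB (709.8 ± 130), MT-ND1 (656 ± 104), MT-ND3 (540.1 ± 167), MT-ND5 (516 ± 77.9) and MT-ND4L (406 ± 172). The last 3 were MT-RNR1 (285 ± 44.8), MT-ND6 (103 ± 24.4) and MT-ATP8 (34.4 ± 13; SD, n = 3 throughout). Among neighbours in this order, only MT-ND4 over MT-ND2, MT-RNR1 over MT-ND6 and MT-ND6 over MT-ATP8 were separated in all libraries; the other neighbours overlapped. With CIC::DUX4, where libraries were closer together, the first 5 places held the same genes and each lay wholly above the next, from MT-CO2 at 3586 ± 245 to MT-ND4 at 1623 ± 149. In every group MT-RNR1, MT-ND6 and MT-ATP8 held the last 3 places. MT-RNR2 exceeded MT-RNR1 by 2.50 to 3.34 times per kilobase over the 9 libraries. What poly(A) enrichment did to each transcript's level was not tested.

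**Figure D4:**
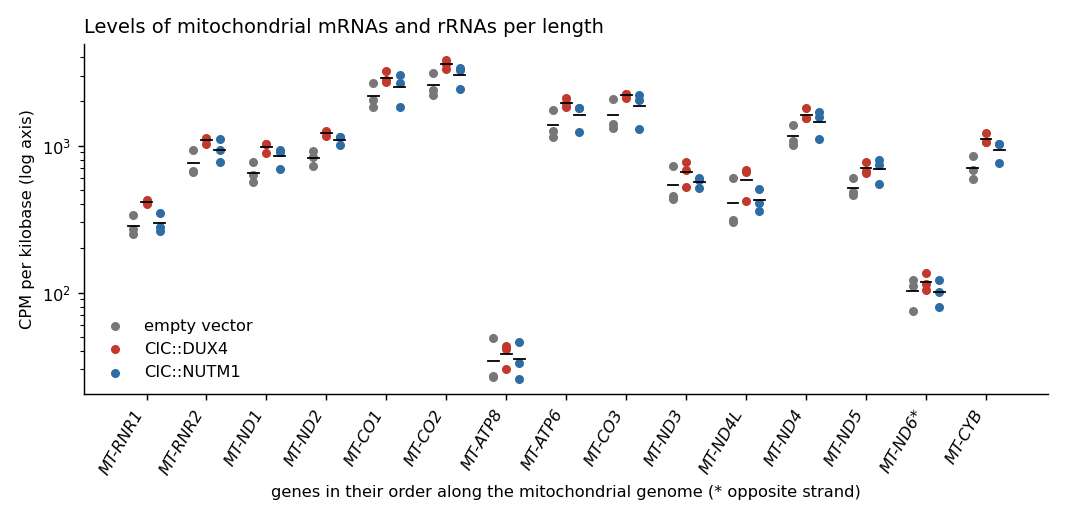
CPM per kilobase of gene length (log axis) for the 2 rRNAs and 13 mRNAs in their order along the genome, with 1 point per library and a black line for each group mean (n = 3); the asterisk marks MT-ND6, read from the opposite strand. MT-CO2 and MT-CO1 are highest, and MT-ND6 and MT-ATP8 lie below all other genes in every group.

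Within a group, a library tended to be high or low for most of the mRNAs at once. Empty vector replicate 1 was the highest of its group for 12 of the 13 mRNAs and replicate 3 the lowest for 12. CIC::NUTM1 replicate 3 was the lowest of its group for 11, and CIC::DUX4 replicate 2 the highest for 10. The 2 genes that were called were also the ones that varied least within groups: the mean coefficient of variation was 7.53% for MT-ND2 and 11.4% for MT-RNR1, and 13.3% to 28.5% for the other 13. Without empty vector replicate 1, 7 mitochondrial genes were called higher with CIC::DUX4 (MT-RNR1, MT-RNR2, MT-ND1, MT-ND2, MT-CO2, MT-ND3 and MT-CYB) and 4 with CIC::NUTM1 (MT-RNR2, MT-ND1, MT-ND2 and MT-CYB). Without CIC::NUTM1 replicate 3, 5 were called higher with CIC::DUX4 (MT-RNR1, MT-ND1, MT-ND2, MT-ND5 and MT-CYB) and 3 with CIC::NUTM1 (MT-ND1, MT-ND2 and MT-ND5). Without empty vector replicate 2, CIC::NUTM1 replicate 1 or any 1 of the CIC::DUX4 libraries, 1 was called with CIC::DUX4. Empty vector replicate 1 and CIC::NUTM1 replicate 3 stood out on these same mitochondrial values, so the added calls without them are no independent result. The share of all genes called in these fits is not given here. The positive sign of all 13 mRNAs with CIC::DUX4 held under the 10 other settings and with each of the 6 libraries left out. With CIC::NUTM1 against empty vector, 9 of 13 kept their sign in each leave-out, and between the fusions 11 of 13 did.

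Copies of mitochondrial genes inserted in nuclear chromosomes can take reads that belong to the mitochondrial gene, or give reads to it. The count table lists 404 such copies, of which 25 had a count and 10 were tested. Their reads summed to 24532, equal to 0.730% of the mitochondrial reads. MTATP6P1, a copy of MT-ATP6, held 77.8% of them, and its counts were 8.51% of those of MT-ATP6 (6.85% to 11.3% by library). MTCO1P12 and MTND4P12 followed, at 0.302% of MT-CO1 and 0.191% of MT-ND4. MTATP6P1 was at 82.4 ± 27.4, 121 ± 33.2 and 90.8 ± 14.6 CPM with empty vector, CIC::DUX4 and CIC::NUTM1 (SD, n = 3). None of the 10 was called in any comparison by edgeR, DESeq2 or limma-trend, with 1, 0 and 0 at an unadjusted p under 0.05 by edgeR in the 3 comparisons. Their median log2 fold changes were 0.56 with CIC::DUX4 and 0.29 with CIC::NUTM1. Levels of MT-ATP6 and MTATP6P1 are uncertain to the extent that reads were divided between them.

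The nuclear genes for the same respiratory complexes gave few calls, and those by edgeR were all lower. Of 74 tested nuclear subunits of complexes I, III, IV and V, none was called higher with either fusion (2 with CIC::DUX4 and 1 with CIC::NUTM1 at an unadjusted p under 0.05). Over all genes tested, 6.96% and 11.5% were called higher. With CIC::DUX4, edgeR called 1 of the 74 lower, where 1.27% of all genes were. By DESeq2 1 was called higher with CIC::DUX4, NDUFA11, singled out here after its values were seen (DESeq2 adjusted p = 0.0418, edgeR 0.0542, log2 fold change 0.55), and by limma-trend 1 between the fusions, ATP5F1B (adjusted p = 0.0413, edgeR 0.0627). With CIC::NUTM1, 2 of the 74 fell, where 3.83% of all genes did, both of them subunits of complex III: UQCRFS1, the Rieske iron-sulfur protein, with a log2 fold change of -0.25 ± 0.07 (adjusted p = 0.00861), and UQCRB at -0.23 ± 0.07 (adjusted p = 0.0231). The lower calls with each fusion were thus near the share of all genes. By edgeR, 4 were lower with CIC::DUX4 and 11 with CIC::NUTM1 at an unadjusted p under 0.05. Of all genes tested, 19.1% and 26.9% had such a p in either direction. DESeq2 called 1 lower with CIC::DUX4 and 3 with CIC::NUTM1. Fitted changes were negative for 55 of the 74 with CIC::DUX4 and 61 with CIC::NUTM1. Between the fusions edgeR called none (2 higher and 8 lower at an unadjusted p under 0.05). UQCRB did not pass without CIC::NUTM1 replicate 1 (0.0816) or empty vector replicate 1 (0.153), nor UQCRFS1 without empty vector replicate 3 (0.0528).

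Median log2 fold changes with CIC::DUX4 were -0.04 for complex I (36 tested), -0.08 for complex III (9), -0.06 for complex IV (11) and -0.03 for complex V (18). With CIC::NUTM1 they were -0.07, -0.16, -0.10 and -0.06. Complex II, which is coded wholly in the nucleus, had none of its 4 subunits called (0 at an unadjusted p under 0.05) and medians of -0.0010 and 0.04. The difference between mitochondrial and nuclear subunits was not itself tested.

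The machinery that makes and keeps mitochondrial RNA changed in few members. Of 16 genes for transcription and replication of mitochondrial DNA, MGME1, an exonuclease of mitochondrial DNA replication, rose with CIC::NUTM1 by 0.54 ± 0.08 (adjusted p = 9.96e-06) against empty vector and by 0.40 ± 0.08 (adjusted p = 0.00128) against CIC::DUX4. Both calls held with each library left out. Over all genes tested, 11.5% and 4.97% were called higher in these comparisons, so 1 call among 16 genes is no result about the list. No member was called with CIC::DUX4 against empty vector (0 at an unadjusted p under 0.05), and POLRMT, TFAM and TFB2M were called in no comparison. Of 20 genes for RNA processing and stability, 1 was called in each comparison, each lower, where 1.27% (CIC::DUX4) and 3.83% (CIC::NUTM1) of all genes were called lower against empty vector, and 1.64% in the comparison of the fusions. HSD17B10 and TRMT10C are both subunits of mitochondrial RNase P: HSD17B10 was at -0.22 ± 0.07 (adjusted p = 0.0308) with CIC::DUX4, and TRMT10C at -0.36 ± 0.08 (adjusted p = 0.00199) with CIC::NUTM1. FASTK was at -0.32 ± 0.08 (adjusted p = 0.0106) with CIC::NUTM1 against CIC::DUX4. HSD17B10 did not pass without CIC::DUX4 replicate 1 or 2 (adjusted p = 0.163 and 0.123) or empty vector replicate 1 or 3 (0.0706 and 0.166), and FASTK did not without CIC::DUX4 replicate 3 or CIC::NUTM1 replicate 3 (0.0786 and 0.0768), while TRMT10C passed in each.

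Of 8 regulators of mitochondrial biogenesis, PPARGC1A, a coactivator of respiratory genes, was the 1 called, at 6.99 ± 1.02 CPM with empty vector and 10.7 ± 0.852 with CIC::NUTM1 (SD, n = 3). It rose by 0.61 ± 0.18 (adjusted p = 0.0217), and did not pass without CIC::NUTM1 replicate 2 (adjusted p = 0.0698) or empty vector replicate 1 or 3 (0.0629 and 0.127). In that comparison 11.5% of all genes tested were called higher, so 1 call among 8 genes was near the share of all genes.

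Proteins of the mitochondrial ribosome, all coded in the nucleus, had 76 tested members. With CIC::NUTM1, 7 fell and 1 rose against empty vector, where 3.83% and 11.5% of all genes did. Those that fell most were MRPL57 (-0.39 ± 0.09 (adjusted p = 0.00223)), MRPL41 (-0.35 ± 0.09 (adjusted p = 0.0139)) and MRPL36 (-0.34 ± 0.10 (adjusted p = 0.0236)), and MRPS2 rose by 0.33 ± 0.07 (adjusted p = 0.00245). The 8 calls became 4 without CIC::NUTM1 replicate 3, and 2 when empty vector replicate 1 or replicate 3 was left out, and MRPL57 and MRPS2 passed with each library left out. MRPL36 was also lower with CIC::NUTM1 than with CIC::DUX4 (-0.44 ± 0.10 (adjusted p = 0.00679)), but not without CIC::DUX4 replicate 3 (adjusted p = 0.0547). With CIC::DUX4 against empty vector none was called by edgeR, DESeq2 or limma-trend, and 5 had an unadjusted p under 0.05 by edgeR. The list medians were -0.03 with CIC::DUX4 and -0.07 with CIC::NUTM1.

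Replication-dependent histone mRNAs, which mostly end in a stem-loop in place of a poly(A) tail, had a higher summed level in each CIC::DUX4 library than in any library of the other groups. Their 68 genes summed to 83.9 to 99.9 CPM with empty vector, 128 to 146 with CIC::DUX4 and 97.8 to 116 with CIC::NUTM1. A large part of each sum came from a single gene, H2BC12, with means of 34.6, 53.4 and 44.5 CPM in the same order. Of 25 tested, against empty vector edgeR called 7 higher with CIC::DUX4 and 3 higher with CIC::NUTM1, where 6.96% and 11.5% of all genes were called higher, so the count with CIC::NUTM1 was near that of all genes. None was called lower against empty vector by edgeR (0 and 1 at an unadjusted p under 0.05), and DESeq2 called 1 lower with CIC::NUTM1. Between the fusions edgeR called 2 lower with CIC::NUTM1, where 1.64% of all genes were. The largest changes with CIC::DUX4 were in H2BC17 (3.50 ± 0.63 (adjusted p = 0.000338)), H4C14 (2.05 ± 0.52 (adjusted p = 0.0105)) and H2BC15 (1.79 ± 0.35 (adjusted p = 0.0017)). With CIC::NUTM1 those called were H2BC17 (1.97 ± 0.67 (adjusted p = 0.0479)), H2BC15 (1.49 ± 0.35 (adjusted p = 0.00572)) and H2BC12 (0.36 ± 0.10 (adjusted p = 0.0171)), and H2BC11 (-1.32 ± 0.23 (adjusted p = 0.000472)) and H3C6 (-0.83 ± 0.24 (adjusted p = 0.0369)) were lower between the fusions. With CIC::DUX4, H2BC17 and H2BC15 passed with each library left out, and H4C14 did not without CIC::DUX4 replicate 1 (adjusted p = 0.1). With CIC::NUTM1 against empty vector, H2BC15 passed with each library left out. H2BC12 did not pass without CIC::NUTM1 replicate 1 or 3 (adjusted p = 0.0977 and 0.0916) or empty vector replicate 1 or 3 (0.0906 and 0.0621). H2BC17 passed without empty vector replicate 1 (0.0426) and with no other library left out (adjusted p = 0.0620 to 0.177). Between the fusions H3C6 did not pass without any 1 of the CIC::DUX4 libraries (0.0945, 0.079 and 0.109) or CIC::NUTM1 replicate 3 (0.204). A panel of 10 other nuclear RNAs without a tail, such as RN7SL1 and RMRP, summed to 7.2 to 10.9, 6.60 to 11.5 and 8.60 to 11.5 CPM in the 3 groups. Of its 3 tested members none was called by edgeR, DESeq2 or limma-trend, with 0, 1 and 1 at an unadjusted p under 0.05 by edgeR. Whether the efficiency of poly(A) enrichment had a part in the mitochondrial levels was not tested.

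**Figure D5:**
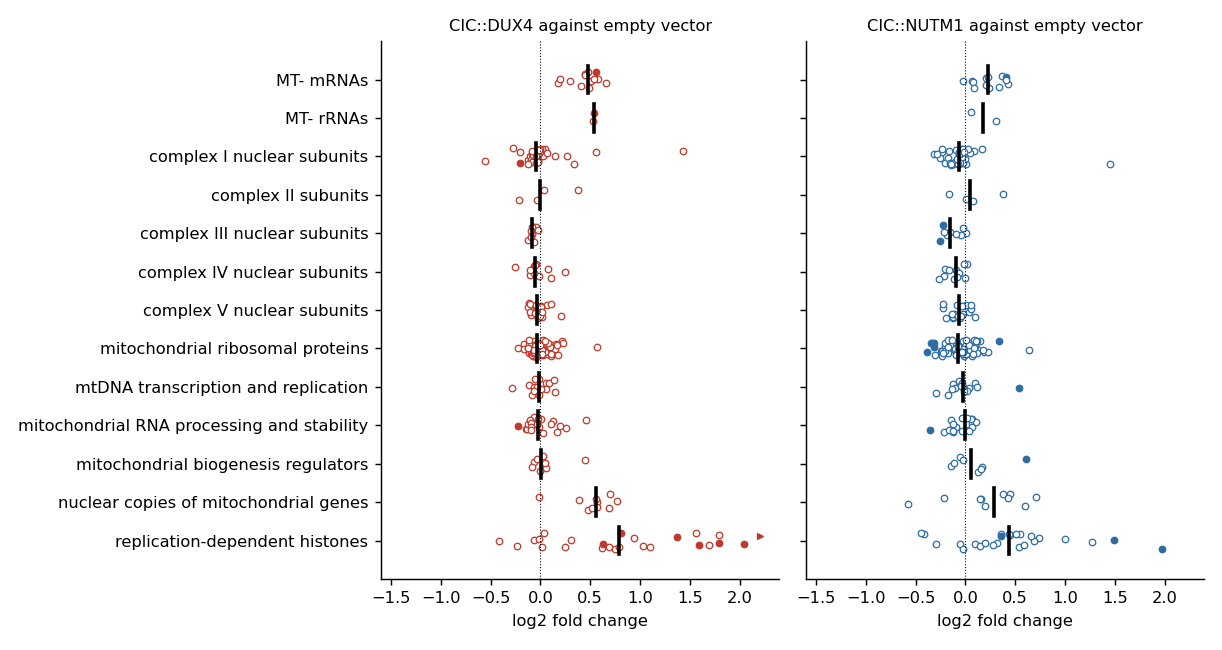
Log2 fold changes (horizontal axis) of tested genes in the mitochondrial classes and in the nuclear gene lists, for each fusion against empty vector, with 1 point per gene, filled points for adjusted p under 0.05, black bars for list medians and an arrowhead for a gene beyond the axis. The mitochondrial mRNAs have medians of 0.48 and 0.23, the nuclear subunit lists of complexes I, III, IV and V lie between -0.16 and -0.03, and the histones are the most spread.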

How the data were processed

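PolyA-enriched RNA of 9 libraries of 293T cells (3 per group) was measured by strand-directional sequencing. The authors deposited a table of raw counts, by Ensembl gene ID, and a table of log2 CPM. Per the submitters' processing notes, STAR 2.7.10b, R 4.2.2 and edgeR 3.40.2 were used with GRCh38; the counting program, annotation and use of strand are not given in the sources used here. Groups came from the sample titles. Symbols were matched for 62622 of 62700 gene IDs, and positions, lengths and sequences came from GENCODE 29 (GRCh38). The fused genes' transcripts and some members of the gene lists are not reported here.

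Counts were tested with edgeR 4.0.16 (R 4.3.3): filterByExpr (17576 genes kept of 34765 with a count), TMM scaling (factors 0.975 to 1.02), and a robust quasi-likelihood fit of all 9 libraries with 1 mean per group. Adjusted p-values are Benjamini-Hochberg over all genes tested, called under 0.05. The SE was taken from the F statistic, as the log2 fold change over its square root. Shares, ratios and composition used two-sided exact permutation tests (scipy 1.17.1). Library totals set the precision, and libraries of a group differed by more than counting noise (chi-square per degree of freedom 5.73 to 9.71), so none was merged. The replicate numbers were not used to pair the libraries in the main fit: the labels give separate days and do not say whether groups shared them.

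The members and gene lists were chosen with earlier results of these data known. All 37 genes are accounted for, and the 13 mRNAs, both rRNAs and the 3 tRNAs of highest mean level are named. Of each list the called genes with the 3 largest changes per direction are named, and of nuclear copies the 3 with most counts. Alternatives were other scalings, filters, DESeq2 1.42.0, limma-trend (limma 3.58.1) on the deposited log2 CPM, a fit of 2 groups, a replicate block and each library left out. On simulated data for CIC::DUX4 against empty vector (17147 genes, 200 changed), edgeR recovered 100% of 2-fold and 88% of 1.5-fold changes, and 2.59% of its calls were false. The simulation drew each gene independently with the same fixed spread. The mitochondrial mRNAs and rRNAs instead varied together by library, with mean coefficients of variation of 7.53% to 28.5%. These rates therefore do not give the power for the mitochondrial genes. Figures were drawn with matplotlib 3.10.9.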

Additional observations from a re-analysis of the deposited data

How the results depend on the processing

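All 13 mRNAs kept a positive change with CIC::DUX4 against empty vector under the 10 other settings and each library left out, and MT-ND2 kept its calls. The number of mitochondrial genes called higher with CIC::DUX4 was 2, and 5 by DESeq2 (MT-RNR2, MT-ND1 and MT-CYB in addition). Library totals in place of TMM moved counts of genes called in the lists, the cause not tested. With CIC::NUTM1 against empty vector, they gave 3 for complex I (0 by TMM), 1 each for complexes IV and V (0), 2 for RNA processing and stability (1) and 15 for the mitochondrial ribosome (8). Between the fusions they gave 1 for complex III (0), 2 for RNA processing and stability (1) and 3 for the mitochondrial ribosome (1). MT-TQ, rarely read, changed sign with CIC::NUTM1 against empty vector: -0.00561 by library totals, -0.0413 by limma-trend and -0.0012 by upper quartile factors. MT-TY became 0.13 by limma-trend between the fusions.

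With the replicate number as a block, 4 mitochondrial genes were called higher with CIC::DUX4 (MT-ND5 and MT-CYB joining MT-ND2 and MT-RNR1) and 3 with CIC::NUTM1 (MT-ND5 and MT-CYB joining MT-ND2). The block gave 2 complex I and 1 complex IV calls with CIC::DUX4 and 1 complex I call between the fusions, and the small changes of MT-TQ (-0.0088, CIC::NUTM1 against empty vector) and MT-TY (0.00081, between the fusions) turned. No other call count left its range of 1.5 times. Same-numbered libraries deviated together weakly (correlations -0.0308 to 0.0753), and 7 of 9 libraries correlated best with one of their own number, a hint from the data only. The labels do not tie a number to a day, so the libraries were not treated as pairs.

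Leaving out each of the 9 libraries in turn, mitochondrial genes called were 1 to 7 (CIC::DUX4 higher), 1 to 4 (CIC::NUTM1 higher) and 0 to 1 (CIC::NUTM1 lower than CIC::DUX4). The share of all genes called in each leave-out fit is not given here. With CIC::DUX4, calls in the lists were 0 to 2 for complex I, 0 to 1 for complex IV, RNA processing, biogenesis regulators and the mitochondrial ribosome. With CIC::NUTM1 they were 0 to 3 for complex I, 1 to 2 for complex III, 0 to 1 for complex V and biogenesis regulators, 1 to 2 for RNA processing, 2 to 10 for the mitochondrial ribosome and 1 to 4 for histones. Between the fusions they were 0 to 1 for complex I and RNA processing, 0 to 2 for complex V and the mitochondrial ribosome and 1 to 3 for histones. Uncalled log2 fold changes that crossed 0 with CIC::NUTM1 against empty vector were MT-RNR1 (-0.0801 to 0.184), MT-ATP8 (-0.20 to 0.40), MT-ND3 (-0.0582 to 0.36), MT-ND4L (-0.0907 to 0.48), MT-ND6 (-0.21 to 0.13), MT-TQ (-0.51 to 0.43), MT-TS1 (-0.0874 to 0.48) and MT-TP (-0.0155 to 0.34). Between the fusions they were MT-ATP8 (-0.37 to 0.0554), MT-ND5 (-0.13 to 0.11), MT-TP (-0.21 to 0.11) and MT-TY (-0.43 to 0.78), and with CIC::DUX4 MT-TY (-0.34 to 0.87). Shares, ratios and composition cannot reach a p under 0.1 with 3 libraries a group, nor one under 0.25 as pairs, and the 18 untested tRNAs were too shallow to compare.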
